A study of Mus musculus with 23 samples.

Results

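The 10 germline genes described here were followed across embryonic stem cells that differed in RAS, in the label for the repressor ERF and in medium. They are Dazl, Ddx4, Sycp1, Sycp3, Mael, Hormad1, Stk31, Tex101, Asz1 and Slc25a31, and they were chosen by name, as genes known to be silenced by promoter DNA methylation outside the germline. All 10 were among the 53607 gene rows and among the 20372 genes with enough counts to test. In GRCm38 (GENCODE M21) they lie as follows: Dazl at chr17:50279395-50293636, Ddx4 at chr13:112598333-112652475, Sycp1 at chr3:102818499-102936100, Sycp3 at chr10:88459569-88473236, Mael at chr1:166201201-166238747, Hormad1 at chr3:95559677-95587671, Stk31 at chr6:49395604-49469501, Tex101 at chr7:24668007-24676675, Asz1 at chr6:18050964-18109061 and Slc25a31 at chr3:40708855-40726096. DNA methylation itself was not measured in these libraries, so the name of the group rests on background knowledge and not on a reading here.

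Germline genes of this kind carry promoters rich in CpG, the dinucleotide that DNA methyltransferases modify. In the early embryo the genome is largely unmethylated, and the de novo enzymes Dnmt3a and Dnmt3b, helped by Dnmt3l, methylate these promoters when the epiblast forms. Before that, and in stem cells held in a naive medium, a repressor assembly that contains E2f6 or Mga with Max and Polycomb partners sits on many of the same promoters. The genes are switched on again in germ cells, where they serve RNA binding, piRNA-directed silencing of transposons, chromosome pairing at meiosis and sperm function.

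RNA from 23 libraries of mouse embryonic stem cells was sequenced, in 8 groups of 3 libraries, except that the reference line in FA had 2. By its label every line carried the alleles H-Ras-/- and N-Ras-/-, a conditional (lox/lox) RAS allele and Ubiq-CreERT2, a Cre recombinase that 4-hydroxytamoxifen activates. The groups combined ERF wild type or ERF KO, no drug or 4-hydroxytamoxifen for 6 days (called RAS deleted here), and 2 media. The 2iL medium contains the MEK inhibitor PD0325901, the GSK3 inhibitor CHIR99021 and LIF and keeps cells naive. FA contains FGF2, Activin A and knockout serum replacement, was given for 48 hours on fibronectin, and moves cells toward the epiblast. The reference line is ERF wild type without the drug. The study's title places the question in the passage of stem cells out of an early stage of pluripotency. Drug and deletion always went together and cannot be told apart, no group received the drug without a RAS allele to delete, and the labels do not say whether replicates were separate cultures or whether a line is 1 clone. P-values therefore measure the spread between these libraries, which may be technical.

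Total counts ran from 16.2 to 29.9 M per library. Erf RNA was present in all libraries. In 2iL without the drug the line labelled ERF knockout stood at 116 ± 17.5 CPM (SD, n = 3) against 77.6 ± 7.66 CPM (SD, n = 3) in the reference line, and in FA at 57.5 ± 7.06 CPM (SD, n = 3) against 63.1 ± 9.41 CPM (SD, n = 2). With RAS deleted it was 152 ± 21 against 87.8 ± 4.13 CPM in 2iL and 60.6 ± 9.91 against 69.7 ± 4.12 CPM in FA (SD, n = 3 each). CPM are counts scaled to library size after TMM normalization. RNA was also counted for Hras (12.0 to 25.9 CPM) and Nras (5.32 to 52.3 CPM) in every library, although both are labelled as null. Nras spread most within the 2iL groups labelled ERF knockout. It ran there from 7.74 to 43.6 CPM with RAS present and from 5.32 to 52.3 CPM with RAS deleted. In the reference line in 2iL it ran from 31.7 to 40.3 CPM. A count per gene does not show a deletion of part of it, so genotypes are given as labelled. General pluripotency genes (Pou5f1, Sox2 and Sall4) were present throughout, and 6 naive markers summed to between 2650 and 3244 CPM over all 2iL libraries. In 4 libraries, replicate 1 of each group with ERF wild type, expression along chromosome 8 was raised (a median of 0.25 to 0.37 on the log2 scale over 428 genes, against -0.09 to 0 elsewhere). No member lies there, but 1 of these libraries is 1 of the 2 reference FA libraries, and all 10 members were higher in the other one, by 1.37- to 3.83-fold. Comparisons with the reference line in FA were therefore refitted without each of its libraries in turn, for gene lists as an alternative added after the values were seen. How many of all genes were higher in reference FA replicate 2 was not counted, so no shift particular to the members is shown.

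The promoters of all 10 genes were found in RefSeq (GRCm38.p6), as 12 windows of 300 bases from 250 before to 50 after the transcription start. They held 15 to 38 CpG, against a median of 7 over all 32851 promoter windows, and 34.6% of all windows held 15 or more. The ratio of observed to expected CpG was 0.67 to 0.98, against a median of 0.38, and GC content was 54.3 to 72.0%, against 52.7%. The 250 bases upstream of the start of 4 genes are given 5′ to 3′ on the strand of the gene and with each CpG in capitals. Dazl and Hormad1 were chosen because they fell in FA in the reference line, and Mael and Ddx4 because they rose there. They lie at chr17:50293621-50293870 (Dazl, minus strand), chr3:95559427-95559676 (Hormad1, plus strand), chr1:166238745-166238994 (Mael, minus strand) and chr13:112652311-112652560 (Ddx4, minus strand).
Dazl: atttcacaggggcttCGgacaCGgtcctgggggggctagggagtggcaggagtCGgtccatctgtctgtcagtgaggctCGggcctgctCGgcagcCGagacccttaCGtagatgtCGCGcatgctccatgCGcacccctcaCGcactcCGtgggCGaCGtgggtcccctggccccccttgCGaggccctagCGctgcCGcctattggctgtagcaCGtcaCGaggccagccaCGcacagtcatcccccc
Hormad1: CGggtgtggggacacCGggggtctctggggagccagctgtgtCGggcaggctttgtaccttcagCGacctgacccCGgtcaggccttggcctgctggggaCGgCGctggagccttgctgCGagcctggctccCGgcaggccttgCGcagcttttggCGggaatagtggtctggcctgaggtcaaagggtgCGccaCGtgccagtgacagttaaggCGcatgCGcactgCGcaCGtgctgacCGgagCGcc
Mael: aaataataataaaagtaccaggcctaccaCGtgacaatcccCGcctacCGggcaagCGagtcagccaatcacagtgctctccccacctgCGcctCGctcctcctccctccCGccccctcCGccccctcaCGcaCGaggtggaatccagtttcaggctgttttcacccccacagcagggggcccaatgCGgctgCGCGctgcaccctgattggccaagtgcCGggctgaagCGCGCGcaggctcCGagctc
Ddx4: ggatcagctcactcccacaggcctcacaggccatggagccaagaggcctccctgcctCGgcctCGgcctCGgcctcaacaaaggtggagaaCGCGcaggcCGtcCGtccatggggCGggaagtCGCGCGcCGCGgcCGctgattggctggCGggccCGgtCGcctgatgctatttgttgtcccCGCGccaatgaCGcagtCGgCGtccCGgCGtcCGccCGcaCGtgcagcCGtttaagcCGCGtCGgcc
The printed stretches hold 20 CpG for Dazl, 19 for Hormad1, 18 for Mael and 31 for Ddx4, so high CpG content is common to genes that moved in opposite directions. CACGTG, the E-box that Mga with Max binds, reads the same on both strands and was found in the windows of 7 of the 10 genes, against 7.20% of all windows and 11.3% of those with 15 or more CpG. GCGGGA or its reverse complement TCCCGC, an E2F site, was found in 6 of the 10, against 20.0% and 45.4%. The same 6 genes held both motifs (Ddx4, Sycp1, Sycp3, Mael, Hormad1 and Slc25a31), against 1.99% of all windows. Dazl, Tex101 and Asz1 held neither and Stk31 held the E-box alone. The RefSeq start used for Tex101 is also that of a GENCODE transcript, but it lies 4625 bases inside the gene as given above, so its window describes this start and not the 5′ end of the gene. For the other 9 genes the 2 annotations place the start 0 to 165 bases apart. A match describes letters in these windows and is no evidence that a factor was bound.

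Each member had counts in every 2iL library, though as few as 4 for Tex101. Counts this low show no more than a trace of RNA. Between genes, levels were compared per transcript length, as the TPM that the authors deposited. In the reference line in 2iL, Dazl, which encodes an RNA-binding protein that licenses germ cell development, was highest at 36.7 ± 2.47 TPM (SD, n = 3), and Hormad1, a component of the meiotic chromosome axis, followed at 21.8 ± 0.747 TPM. The synaptonemal complex gene Sycp3 stood at 7.01 ± 1.39 TPM and Stk31, a testis kinase-like gene, at 5.89 ± 0.948 TPM, with library values that overlapped. Tex101, Ddx4 and Mael lay between 2.09 and 2.30 TPM, Asz1 and Sycp1 were lower, and Slc25a31 was lowest at 0.347 ± 0.0997 TPM. By this scale Dazl made up 44.6 to 46.6% of the summed TPM of the 10 genes in each of these libraries.

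In the line labelled ERF knockout in FA the order was another one. Mael, which acts in the piRNA pathway, was highest at 19.6 ± 0.669 TPM (SD, n = 3), then Sycp3 at 14 ± 0.966 TPM, Hormad1 at 9.57 ± 0.373 TPM and Ddx4, the Vasa RNA helicase, at 8.61 ± 0.0644 TPM. Dazl made up 6.69 to 11.4% of the summed TPM there, and Mael, at 1.91 to 3.10% in the reference line in 2iL, made up 26.0 to 28.7%. In the RAS-deleted line with ERF wild type the FA mix had Dazl at 42.3 to 50.03% and Mael at 3.19 to 4.62%.

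**Figure D1:**
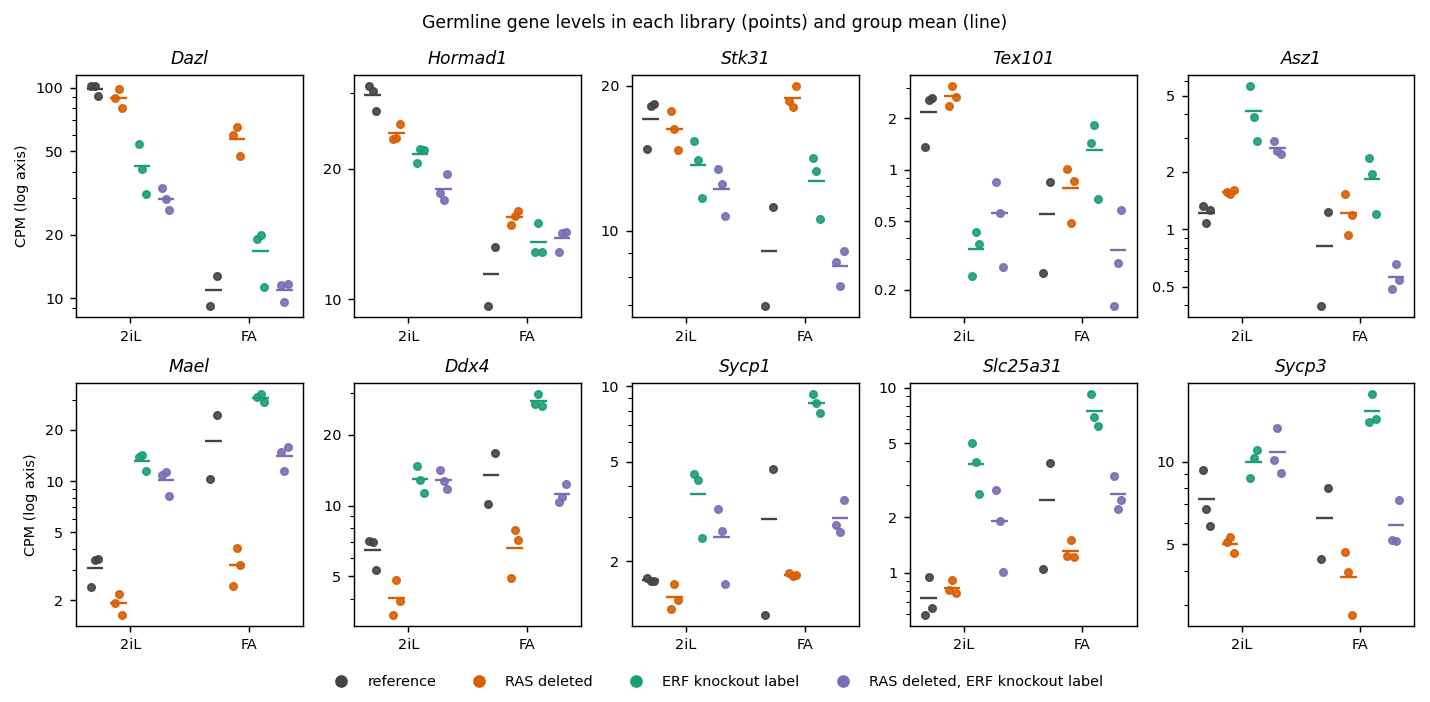
Level of each of the 10 germline genes in each of the 23 libraries, as CPM on a log axis, with 2iL on the left and FA on the right of each panel and a line at each group mean (3 libraries a group, 2 for the reference line in FA). Dazl lies at 47.4 to 64.9 CPM in the RAS-deleted FA libraries against 9.21 to 12.8 CPM in the reference FA libraries, and Mael lies at 2.41 to 4.05 CPM against 10.3 to 24.3 CPM.

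The first question was what the move from naive to epiblast medium did to these genes in the reference line. Dazl, Hormad1 and Tex101 fell, and Mael, Ddx4 and Slc25a31 rose, so the group did not move as a block. These are 3 rises and 3 falls among 10 genes, where 24% of all genes tested were called, 13.2% higher and 10.8% lower. Called means an edgeR p under 0.05 after Benjamini-Hochberg adjustment over all genes tested, together with a change of at least 2-fold. The median log2 change of the members was -0.45, against 0.03 over all genes. Without FA replicate 1 there were 4 rises and 2 falls (median 0.05), and without FA replicate 2 there were 1 and 5 (median -1.02).

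Dazl stood at 102, 103 and 91.4 CPM in the 2iL libraries of the reference line and at 9.21 and 12.8 CPM in FA. The groups did not overlap, and the log2 change was -3.17 (SE 0.26, edgeR adjusted p 1.01e-08), or -3.43 to -2.96 with each library left out in turn. Hormad1 had 31.2, 30.2 and 27.3 CPM in 2iL and 9.64 and 13.2 CPM in FA (log2 -1.38, SE 0.12, edgeR adjusted p 1.05e-09), or -1.63 to -1.19 with each library left out. Tex101, a cell-surface protein of testicular germ cells, was sparse, at 1.37, 2.56 and 2.60 CPM in 2iL and 0.252 and 0.852 CPM in FA (log2 -2.01, SE 0.52, edgeR adjusted p 0.00238). Its counts were 4 to 61 per library, the lowest of the 10, and its call was lost without replicate 1 in FA (log2 -1.34, edgeR adjusted p 0.0733). The change was -3.07 without replicate 2. Stk31 was lower in both FA libraries, at 6.98 and 11.2 CPM against 14.8 to 18.3 CPM, but by less than the 2-fold minimum (log2 -0.92, SE 0.17, edgeR adjusted p 9.76e-05). It was called lower without FA replicate 2 (-1.30) or 2iL replicate 1 (-1.02), and was -0.63 without FA replicate 1.

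Mael had 2.38, 3.45 and 3.48 CPM in 2iL and 10.3 and 24.3 CPM in FA. Both FA libraries lay above every 2iL library, and the log2 change of 2.48 (SE 0.27, edgeR adjusted p 2.44e-07) was 1.73 without replicate 2 in FA. Ddx4 had 7.07, 7.02 and 5.34 CPM in 2iL and 10.1 and 16.8 CPM in FA (log2 1.05, SE 0.20, edgeR adjusted p 1.07e-04). Slc25a31, a germ cell ADP/ATP carrier of mitochondria, had 0.595, 0.952 and 0.650 CPM in 2iL and 1.04 and 3.93 CPM in FA (log2 1.76, SE 0.45, edgeR adjusted p 0.00241). The calls of Ddx4 and Slc25a31 rest on FA replicate 2. Without it Ddx4 changed by 0.64 and Slc25a31 by 0.54 (edgeR adjusted p 0.0168 and 0.375), and neither was called, while Slc25a31 changed by 2.43 without FA replicate 1. The call for Ddx4 was also lost without 2iL replicate 3 (0.92) and in a fit with the replicate number as a block (0.88).

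The remaining members did not pass the test with all libraries. Sycp1, which forms the transverse filaments of the synaptonemal complex, had 1.67 to 1.72 CPM in 2iL and 1.22 and 4.69 CPM in FA, on either side of the 2iL values. Sycp3 had 5.85 to 9.31 CPM against 4.43 and 8.05 CPM, and Asz1, a scaffold of the germ cell granules where piRNAs are made, had 1.07 to 1.33 CPM against 0.396 and 1.23 CPM. For all 3 the ranges of the groups overlapped, where those of the other 7 members and of 60.7% of all genes did not, and the 2 FA libraries differed by 1.82- to 3.83-fold. Leaving out 1 FA library made calls of 2 of them: Asz1 was called lower without replicate 2 (-1.63, edgeR adjusted p 0.00770), and Sycp1 higher without replicate 1 (1.45, edgeR adjusted p 0.000395).

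The other lines were compared between media in the same way. With RAS deleted and ERF wild type, 1 member was called lower in FA and none higher, against 16.5% of all genes called, 6.59% lower and 9.96% higher. It was Tex101, from 2.37, 3.09 and 2.66 CPM to 1.01, 0.486 and 0.863 CPM (log2 -1.78, SE 0.42, edgeR adjusted p 0.00142). Dazl had 89.7, 99.0 and 80.1 CPM in 2iL and 60.0, 64.9 and 47.4 CPM in FA (log2 -0.64, SE 0.19, edgeR adjusted p 0.0125). The groups did not overlap, but the change was under 2-fold. The medium effect on Dazl differed between these lines by 2.53 on the log2 scale (SE 0.31, edgeR adjusted p 8.88e-06, a test of the difference).

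In the line labelled ERF knockout, 4 members rose and 2 fell in FA, against 19.7% of all genes called, 12.3% higher and 7.46% lower. Mael went from 13.8, 14.2 and 11.5 CPM to 31.1, 32.3 and 29.0 CPM (log2 1.23, SE 0.22, edgeR adjusted p 0.000139). Ddx4 went from 11.3 to 14.8 CPM in 2iL to 26.4 to 29.8 CPM in FA, and Sycp1 from 2.47 to 4.47 CPM to 7.81 to 9.29 CPM, with log2 changes of 1.09 and 1.20. Tex101 rose as well, from 0.240, 0.433 and 0.368 CPM to 1.43, 1.82 and 0.677 CPM (log2 1.90, SE 0.51, edgeR adjusted p 0.00347), where it fell in the reference line. Dazl fell from 54.4, 41.3 and 31.4 CPM to 19.2, 20.1 and 11.3 CPM (log2 -1.33), and Asz1 from 2.89 to 5.67 CPM to 1.20 to 2.36 CPM (log2 -1.18). Asz1 was not called without 2iL replicate 1 (-0.90) or FA replicate 3 (-0.95), nor Sycp1 without 2iL replicate 3 (0.98), while Slc25a31 was called higher without 2iL replicate 1 (1.15) or FA replicate 3 (1.04).

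With RAS deleted and the ERF knockout label together, no member rose and 2 fell, against 24.9% of all genes called, 14.5% higher and 10.4% lower. Asz1 had 2.90, 2.58 and 2.49 CPM in 2iL and 0.483, 0.653 and 0.539 CPM in FA, its largest change with the medium in any line (log2 -2.25, SE 0.34). Dazl went from 33.5, 29.5 and 26.3 CPM to 11.6, 9.59 and 11.7 CPM (log2 -1.44, SE 0.22). Mael was at 8.22 to 11.3 CPM in 2iL and 11.5 to 15.8 CPM in FA (log2 0.47, SE 0.23, edgeR adjusted p 0.0902). Dazl was thus lower in FA in every line, called in 3 of 4, and Mael was called higher in the 2 lines with RAS present.

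**Figure D2:**
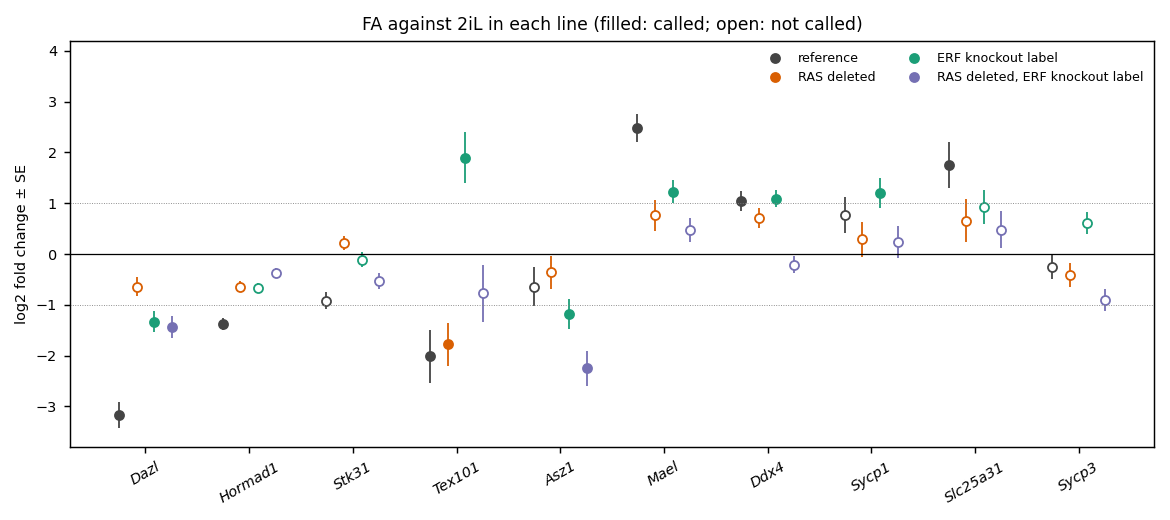
Log2 fold change of each germline gene from 2iL to FA in each line, with its standard error; filled points passed the test and the 2-fold minimum, which dotted lines mark, and open points did not. Dazl is lowest in the reference line (-3.17) and at -0.64 with RAS deleted, and Tex101 lies on opposite sides of 0 in the reference line (-2.01) and the line labelled ERF knockout (1.90).

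The second question was what the deletion of RAS did in each medium. In 2iL, where the MEK inhibitor is present in every library, no member was called with ERF wild type, and 1.2% of all genes were, 0.692% higher and 0.506% lower. At an unadjusted p under 0.05, 4 of the 10 passed, beside 21.5% of all genes. Ddx4 alone had an edgeR adjusted p under 0.05, as 5.7% of all genes did, at 3.44, 4.82 and 3.92 CPM against 7.07, 7.02 and 5.34 CPM (log2 -0.67, SE 0.20, edgeR adjusted p 0.0460), under the 2-fold minimum. With the ERF knockout label none was called in 2iL either, by edgeR and by DESeq2 alike, against 0.211% of all genes (0.0687% higher and 0.142% lower), and 4 of 10 had an unadjusted p under 0.05, beside 14.6% of all genes. There Slc25a31 had 2.79, 1.90 and 1.01 CPM against 5.05, 3.95 and 2.68 CPM (log2 -1.02, SE 0.37, edgeR adjusted p 0.180). Its ranges overlapped, but same-numbered replicates deviated together in this comparison, and with the replicate number as a block it was called lower (log2 -1.06, edgeR adjusted p 0.000242), where 1.26% of genes were called.

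In FA the deletion of RAS moved Dazl and Mael in opposite directions. This comparison and the one between media in the reference line share the reference FA libraries, so they are not independent. Against the reference line, Dazl and Stk31 were higher and Mael and Ddx4 lower, 4 calls among 10 genes where 17.3% of all genes were called, 8.93% higher and 8.33% lower. Dazl had 60.0, 64.9 and 47.4 CPM with RAS deleted against 9.21 and 12.8 CPM (log2 2.39, SE 0.25, edgeR adjusted p 5.02e-07), or 2.19 to 2.65 with each library left out. These values lie between the FA and 2iL values of the reference line, which were 91.4 to 103 CPM in 2iL. Stk31 had 18.6, 18 and 20.0 CPM against 6.98 and 11.2 CPM (log2 1.07, SE 0.17, edgeR adjusted p 2.25e-05), and was under 2-fold without reference FA replicate 1 (0.78).

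Mael had 2.41, 4.05 and 3.24 CPM with RAS deleted in FA against 10.3 and 24.3 CPM in the reference line (log2 -2.40, SE 0.27, edgeR adjusted p 4.85e-07). The groups did not overlap, and the reference line in 2iL had 2.38 to 3.48 CPM. The change was -1.64 without reference FA replicate 2. Ddx4 had 4.91, 7.86 and 7.12 CPM against 10.1 and 16.8 CPM (log2 -1.01, SE 0.19, edgeR adjusted p 1.97e-04), and fell short of 2-fold without reference FA replicate 2 (-0.59) or RAS-deleted FA replicate 1 (-0.84). Hormad1 had 14.9, 15.6 and 16 CPM against 9.64 and 13.2 CPM, apart but under 2-fold (log2 0.45, edgeR adjusted p 0.00305). For Sycp1, Sycp3, Tex101, Asz1 and Slc25a31 the ranges overlapped, where 53.1% of all genes had ranges apart. Without reference FA replicate 1, Sycp1 (-1.39), Sycp3 (-1.07) and Slc25a31 (-1.56) were called lower too, as they were without the 4 libraries with raised chromosome 8 expression (-1.40, -1.25 and -1.52). Without reference FA replicate 2, Asz1 was called higher (1.62).

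With the ERF knockout label the same deletion in FA lowered 7 of the 10 genes and raised none, where 6.88% of all genes were called, 4.06% lower and 2.81% higher. The median log2 change of the 10 was -1.35, against 0 over all genes. Ddx4 had 10.3, 10.9 and 12.3 CPM against 27.0, 29.8 and 26.4 CPM (log2 -1.31, SE 0.17), Mael 14.9, 11.5 and 15.8 CPM against 31.1, 32.3 and 29.0 CPM (log2 -1.13, SE 0.22) and Sycp1 2.80, 2.61 and 3.52 CPM against 9.29, 8.56 and 7.81 CPM (log2 -1.52, SE 0.30). Sycp3 (log2 -1.39), Slc25a31 (-1.47), Tex101 (-1.96) and Asz1 (-1.72) fell as well, with edgeR adjusted p from 7.45e-05 to 0.00456. In all 7, and in Stk31, no library of one group reached the other, as held for 46.9% of all genes, and all 7 calls held when each library was left out in turn.

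The 3 genes outside this fall were Dazl, Hormad1 and Stk31. Dazl had 11.6, 9.59 and 11.7 CPM against 19.2, 20.1 and 11.3 CPM (log2 -0.61), Stk31 7.67 to 9.08 CPM against 10.6 to 14.1 CPM (log2 -0.58), and Hormad1 12.9 to 14.3 CPM against 12.8 to 15 CPM (log2 0.02). The RAS effect in FA differed with the ERF label for 5 genes, where 13.7% of all genes were called, 6.29% with a higher and 7.42% with a lower effect. The median difference of the 10 members was -0.75, or -0.28 without reference FA replicate 1 and -1.94 without replicate 2. For Dazl the difference was -3.01 (SE 0.33, edgeR adjusted p 2.20e-06), for Stk31 -1.65 (SE 0.23, edgeR adjusted p 7.78e-06), for Asz1 -2.34 (SE 0.52) and for Tex101 -2.52 (SE 0.73). Without single libraries the Asz1 value ran from -3.35 to -1.72 and that of Tex101 from -3.60 to -1.86, the ends without reference FA replicate 2 and 1. For Mael it was 1.27 (SE 0.35, edgeR adjusted p 0.00922), which was 0.50 without reference FA replicate 2, and Tex101 lost its call without replicate 1. Ddx4, at -0.30 (SE 0.26), was lower with RAS deleted under both ERF labels.

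**Figure D3:**
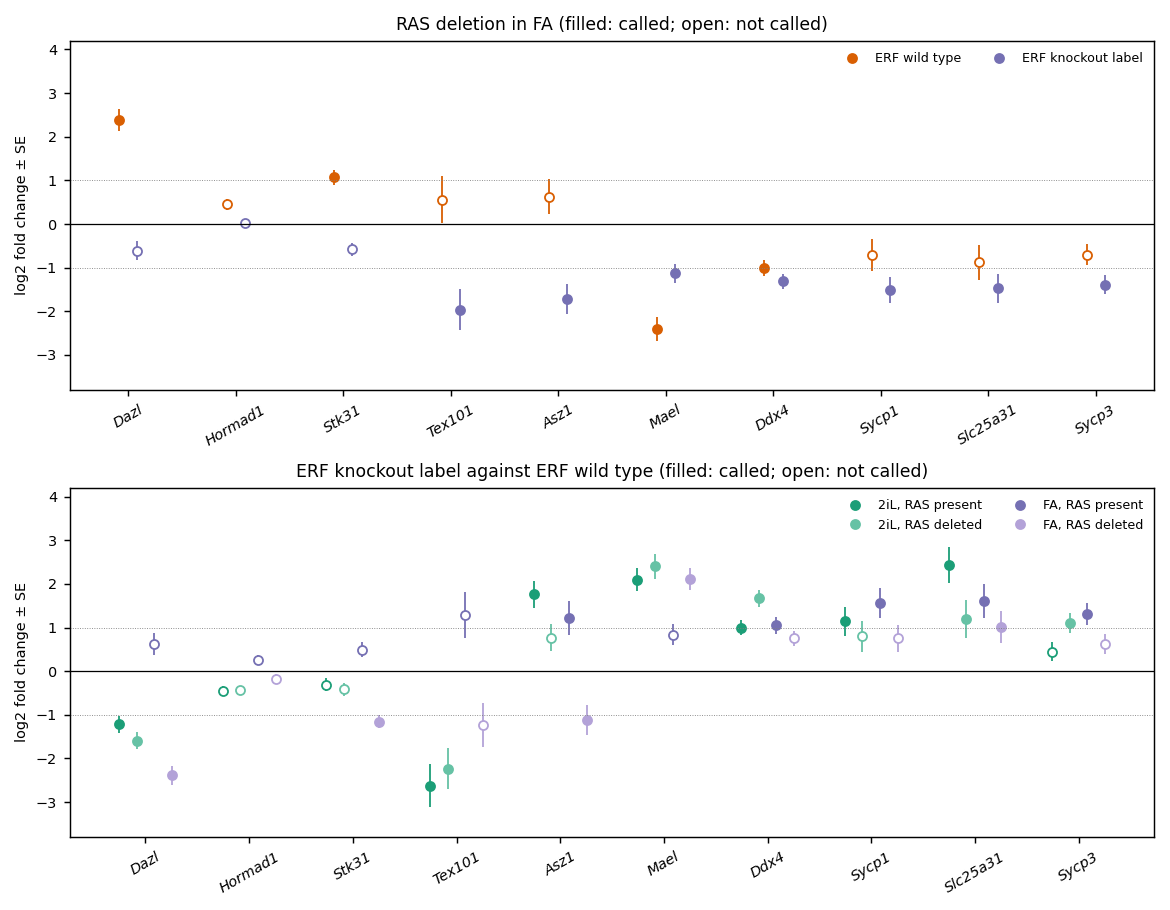
Log2 fold change of each germline gene with its standard error, for the deletion of RAS in FA under each ERF label (upper panel) and for the ERF knockout label against ERF wild type in each medium and RAS state (lower panel); filled points passed the test and the 2-fold minimum, open points did not. The 7 filled points with the ERF knockout label in the upper panel lie between -1.13 and -1.96, and Dazl lies at 2.39 with ERF wild type and at -0.61 with the ERF knockout label.

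The third question was how lines with the ERF knockout label differed from ERF wild type. In 2iL with RAS present 5 members were higher and 2 lower, against 9.72% of all genes called, 5.2% higher and 4.52% lower. Mael had 13.8, 14.2 and 11.5 CPM against 2.38, 3.45 and 3.48 CPM (log2 2.10, SE 0.26, edgeR adjusted p 4.99e-06), already above its level in the reference FA library with the lower value. Slc25a31 had 5.05, 3.95 and 2.68 CPM against 0.595, 0.952 and 0.650 CPM (log2 2.44, SE 0.41), and Asz1 5.67, 3.90 and 2.89 CPM against 1.33, 1.07 and 1.25 CPM (log2 1.76, SE 0.31). Sycp1 and Ddx4 were higher by 1.14 and 1.00 on the log2 scale, both near the 2-fold minimum: Ddx4 was under it without wild-type 2iL replicate 3 (0.88) or knockout-labelled replicate 1 (0.92), and Sycp1 had an edgeR adjusted p of 0.0514 without the latter.

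Dazl and Tex101 were the genes that were lower. Dazl had 54.4, 41.3 and 31.4 CPM against 102, 103 and 91.4 CPM (log2 -1.22, SE 0.20, edgeR adjusted p 0.000166), and Tex101 0.240, 0.433 and 0.368 CPM against 1.37, 2.56 and 2.60 CPM (log2 -2.62, SE 0.49). No library of either group reached the other. Hormad1 was lower by less than 2-fold, at 20.7 to 22.2 CPM against 27.3 to 31.2 CPM (log2 -0.45). This comparison and the one between media in the reference line share the reference 2iL libraries.

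With RAS deleted in 2iL the ERF knockout label went with 4 higher and 2 lower members, against 13% of all genes called, 5.83% higher and 7.15% lower. Mael had 10.8, 11.3 and 8.22 CPM against 1.94, 2.18 and 1.65 CPM (log2 2.40, SE 0.29), Ddx4 14.2, 12.7 and 11.8 CPM against 3.44, 4.82 and 3.92 CPM (log2 1.67, SE 0.19), and Sycp3 9.10 to 13.3 CPM against 4.65 to 5.33 CPM (log2 1.11, SE 0.23). Slc25a31 was higher by 1.20 (SE 0.43, edgeR adjusted p 0.0300), a call lost in 5 of the 6 fits that left out a library, with adjusted p of 0.0578 to 0.184. Dazl had 33.5, 29.5 and 26.3 CPM against 89.7, 99.0 and 80.1 CPM (log2 -1.59, SE 0.20), and Tex101 had a log2 change of -2.23 (SE 0.46). Sycp3 was under 2-fold (0.94) without replicate 2 of the line with both changes.

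In FA with RAS present 5 members were higher and none lower with the ERF knockout label, where 2.36% of all genes were called (1.58% higher and 0.78% lower), but these calls rest on the reference FA libraries. Ddx4 had 27.0, 29.8 and 26.4 CPM against 10.1 and 16.8 CPM (log2 1.05, SE 0.19, edgeR adjusted p 0.00164) and Sycp3 14, 17.6 and 14.4 CPM against 4.43 and 8.05 CPM (log2 1.31, SE 0.25, edgeR adjusted p 0.00231). Sycp1 (log2 1.56), Slc25a31 (1.61) and Asz1 (1.22) were the others. Asz1, at 1.20 to 2.36 CPM against 0.396 and 1.23 CPM, was the one call whose ranges overlapped, and it was also lost without knockout-labelled replicate 1 (1.00) or 2 (1.19). Without reference FA replicate 1 all 5 were under 2-fold: Ddx4 had 0.75, Sycp1 0.89, Sycp3 0.96, Slc25a31 0.95 and Asz1 0.60. Without reference FA replicate 2 they were larger, at 1.47 for Ddx4, 2.82 for Sycp1, 1.81 for Sycp3, 2.85 for Slc25a31 and 2.21 for Asz1. With only these groups in the fit 2 were called, Ddx4 and Sycp3. Mael had 31.1, 32.3 and 29.0 CPM against 10.3 and 24.3 CPM, apart but under 2-fold (log2 0.84, edgeR adjusted p 0.0381). It was called higher without reference FA replicate 2 (1.60, edgeR adjusted p 0.000223) and was 0.37 without replicate 1, and Tex101 was called higher without replicate 2 (2.36).

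In FA with RAS deleted the ERF knockout label went with members in both directions, 2 higher and 3 lower against 16.6% of all genes called, 8.13% higher and 8.48% lower. Mael had 14.9, 11.5 and 15.8 CPM against 2.41, 4.05 and 3.24 CPM (log2 2.12, SE 0.25, edgeR adjusted p 9.34e-07), and Dazl 11.6, 9.59 and 11.7 CPM against 60.0, 64.9 and 47.4 CPM (log2 -2.39, SE 0.21, edgeR adjusted p 6.03e-08). Stk31 had 8.63, 7.67 and 9.08 CPM against 18.6, 18 and 20.0 CPM (log2 -1.16, SE 0.15). These 3 genes thus lay, with RAS deleted and the ERF knockout label, at 9.59 to 11.7 CPM for Dazl, 11.5 to 15.8 CPM for Mael and 7.67 to 9.08 CPM for Stk31, beside 9.21 to 12.8, 10.3 to 24.3 and 6.98 to 11.2 CPM in the reference FA libraries. Slc25a31 was higher by 1.02 and Asz1 had a log2 change of -1.12. Asz1 lost its call without replicate 1 of the line with both changes (-1.02, edgeR adjusted p 0.0502) or of the RAS-deleted line (-0.93), and with effective length as an offset (-0.76). Slc25a31 lost its call without replicate 1 of either line (0.83 and 0.98) or RAS-deleted replicate 3 (0.97). Tex101 was called lower without RAS-deleted replicate 2 (-1.47) or replicate 3 of the line with both changes (-1.82).

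Whether an effect depended on the medium was tested as a difference between effects. For the deletion of RAS with ERF wild type it did for Dazl and Stk31, whose effect was higher in FA than in 2iL, and for Mael, whose effect was lower, where 11.9% of all genes were called, 6.6% higher and 5.3% lower. With the ERF knockout label it was lower in FA for Ddx4, Sycp3 and Tex101, whose call was lost in 5 of 12 fits without 1 library, against 4.59% of all genes called, 2.29% higher and 2.31% lower. The effect of the ERF knockout label with RAS present was higher in FA for Dazl and Tex101 (3.91, and 3.24 to 4.97 without single libraries) and lower for Mael, whose call was lost in 6 of 11 such fits (-1.75 to -0.52), against 4.27% called, 2.22% higher and 2.05% lower. With RAS deleted it was lower for Asz1, against 11.3% called, 5.59% higher and 5.74% lower. With all libraries in the fit, no difference between effects was called for Sycp1, Hormad1 and Slc25a31.

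Other genes moved beside the members. Germ cell precursor markers (Prdm1, Prdm14, Tfap2c, Nanos3, Dnd1 and Dppa3) summed to 171 to 191 CPM in the reference line in 2iL, 28.2 to 38.2 CPM in FA and 108 to 129.9 CPM in FA with RAS deleted. They summed to 62.7 to 76.5 CPM over the 2iL libraries labelled ERF knockout, and none of the 6 was at 0 in any group. They did not move as 1: between media in the reference line Prdm14 (-5.61), Tfap2c (-3.30), Dppa3 (-2.84) and Nanos3 (-1.97) fell, while Prdm1 (1.64) and Dnd1 (1.03) rose, beside 10.8% of all genes called lower and 13.2% higher. Dnd1 was not called without FA replicate 2 (0.65). In 2iL with RAS present the same 4 were lower with the ERF knockout label and Dnd1 was higher (1.13), beside 4.52% and 5.2% of all genes. The 6 naive markers summed to 200 to 220.3 CPM in the reference FA libraries and 1078 to 1729 CPM in the RAS-deleted FA libraries with ERF wild type, where all 6 were called higher than in the reference line, beside 8.93% of all genes, also without each reference FA library in turn. In the 2iL libraries labelled ERF knockout with RAS present, where Dazl was lower, the naive markers summed to 2650 to 2816 CPM, and none of the 6 was called. In FA with RAS deleted, where Dazl was lower with the ERF knockout label too, all 6 naive markers were called lower. So were 3 of the 6 precursor markers, with none higher, beside 8.48% of all genes called lower. The part of either list in the values of Dazl was not tested. Levels of the precursor list do not by themselves show that germ cell precursors were present.

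The 5 primitive endoderm markers (Gata6, Gata4, Sox17, Sox7 and Pdgfra) were lower in FA where RAS was deleted, 5 of 5 called with ERF wild type and 4 of 5 with the knockout label, as Mael and Ddx4 were, beside 8.33% and 4.06% of all genes called lower. Without reference FA replicate 1 it was 4 of 5 with ERF wild type, as Sox17 (-1.05) was not called. They summed to 48.1 to 88.3 CPM in the reference line, 51.3 to 62.0 CPM with the ERF knockout label, 7.55 to 11 CPM with RAS deleted and 10.9 to 20.02 CPM with both. They were also called higher where Mael and Ddx4 were: 4 of 5 between media in the reference line (13.2% of all genes), 2 of 5 in the line labelled ERF knockout (12.3%), and 3 of 5 for the ERF knockout label in 2iL with RAS present (5.2%). The first was 5 of 5 without FA replicate 2. In other comparisons they differed: with both changes Mael and Ddx4 lay within their reference FA ranges and the endoderm sum below its own, and for the ERF knockout label none of the 5 was called in 2iL with RAS deleted, where Mael and Ddx4 were, or in FA with RAS present, where Ddx4 was. The 5 two-cell-like markers (Zscan4c, Zscan4d, Zscan4f, Tcstv1 and Tcstv3), which share reads among close copies, summed to 11 to 22.1 CPM in the reference line in 2iL and to at least 31.2 CPM in every library of the other 7 groups. All 5 were called higher with the ERF knockout label in 2iL with RAS present, beside 5.2% of all genes. With ERF wild type the deletion of RAS went with 3 of 5 higher in FA (8.93% of all genes) and 2 of 5 in 2iL (0.692%). With the knockout label the same deletion went with 1 of 5 lower in FA (4.06%). None of these endoderm and two-cell-like markers was at 0 throughout a group, and their part in the germline values was not tested. In bulk RNA, fewer cells that express a gene and less RNA per cell cannot be told apart.

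The 5 formative epiblast markers (Fgf5, Otx2, Pou3f1, Sox3 and Dnmt3b, which is also in the next list) were called in the direction of Mael in several comparisons. Between media in the reference line 5 of 5 were called higher, beside 13.2% of all genes. In the line labelled ERF knockout 5 of 5 were higher in FA as well, beside 12.3% of all genes. With RAS deleted in FA and ERF wild type 4 of 5 were called lower, beside 8.33% of all genes, and Otx2 was higher (1.03, beside 8.93%). Without reference FA replicate 2 the lower ones were 2, as Fgf5 (-1.61) and Sox3 (-0.97) were not called, and without replicate 1 Otx2 was not called (0.81). The ERF knockout label in FA with RAS deleted went with 4 of 5 higher, beside 8.13% of all genes. In other comparisons they differed: all 5 were higher in FA in both lines with RAS deleted (9.96% and 14.5% of all genes), where Mael was not called, and none was higher with the ERF knockout label in 2iL with RAS present, where Mael was. Their summed level was 44.9 to 73.6 CPM in the reference line in 2iL, and in FA 569 to 642 CPM there, 113 to 302 CPM with RAS deleted, 364 to 420 CPM with the ERF knockout label and 490.4 to 518 CPM with both.

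Fibroblast markers (Col1a1, Col1a2, Col3a1, Thy1 and Pdgfrb, of which Col3a1 had too few counts to test) were called lower in 3 of 4 with RAS deleted in FA and ERF wild type, beside 8.33% of all genes, and in 2 of 4 without each reference FA library in turn. With RAS deleted in FA, 2 of 4 were higher with the ERF knockout label, beside 8.13% of all genes. They summed to 9.35 to 10.2 CPM in the reference FA libraries, 4.28 to 6.31 CPM with RAS deleted and 9.08 to 11.1 CPM with both changes, and 1 of the 5 was at 0 throughout 3 of the 2iL groups. Trophoblast markers (Cdx2, Elf5, Eomes, Gata3 and Hand1) moved both ways: with RAS deleted in FA and ERF wild type Hand1 (-4.39) and Cdx2 (-2.75) were lower and Gata3 (3.48) and Elf5 (1.34) higher, where 17.3% of all genes were called. Elf5 was not called without reference FA replicate 2 (0.94), nor Cdx2 without replicate 1 (-1.44), where Eomes was. They summed to 23.3 to 28.6 CPM in the reference FA libraries, 25.2 to 30.6 CPM with RAS deleted and 9.64 to 12.5 CPM with the ERF knockout label. The part of these 3 lists in the germline values was not tested.

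The enzymes that act on DNA methylation were read from a list of 10 genes. In the reference line 4 of them rose in FA and none fell, against the 24% of all genes called. Dnmt3b had 34.7, 59.3 and 65.4 CPM in 2iL and 437 and 463 CPM in FA (log2 3.09, SE 0.32, edgeR adjusted p 5.21e-07), and Dnmt3l 3.36, 3.99 and 4.37 CPM against 276 and 394 CPM (log2 6.43, SE 0.34, edgeR adjusted p 8.97e-11). Dnmt3a rose by 2.50 and Tdg, a glycosylase of active demethylation, by 1.03. The maintenance enzyme Dnmt1 and its partner Uhrf1 changed by -0.51 and -0.45, Uhrf2 by 0.64, and the demethylating dioxygenases Tet1, Tet2 and Tet3 by -0.18, -0.94 and 0.44, none past 2-fold. Without FA replicate 1 Tet2 was called lower (-1.12). The de novo enzymes thus rose in the libraries where Dazl, Hormad1 and Tex101 fell and where Mael, Ddx4 and Slc25a31 rose, and their part in either was not tested.

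Of this list, 1 of 10 genes was called for the deletion of RAS in FA with ERF wild type, where 17.3% of all genes were. Dnmt3b had 62.0, 105 and 187 CPM against 437 and 463 CPM (log2 -1.93, SE 0.31, edgeR adjusted p 8.94e-05), which did not overlap, and the change was -1.96 and -1.87 without reference FA replicate 1 and 2. Dnmt3l had 112, 207 and 287 CPM in the same libraries against 276 and 394 CPM, and Dnmt3a 169, 204 and 210.04 CPM against 235 and 295 CPM, changes of -0.73 and -0.45 that did not reach 2-fold. With the ERF knockout label Dnmt3b in FA was at 281 to 325 CPM with RAS present and 332 to 346 CPM with RAS deleted. In 2iL Dnmt3l was higher with the ERF knockout label, at 14.3, 14.2 and 19.5 CPM against 3.36 to 4.37 CPM (log2 2.05, SE 0.32, edgeR adjusted p 1.67e-04), while Dnmt3a and Dnmt3b did not differ by 2-fold. With RAS deleted it was higher by 1.76.

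**Figure D4:**
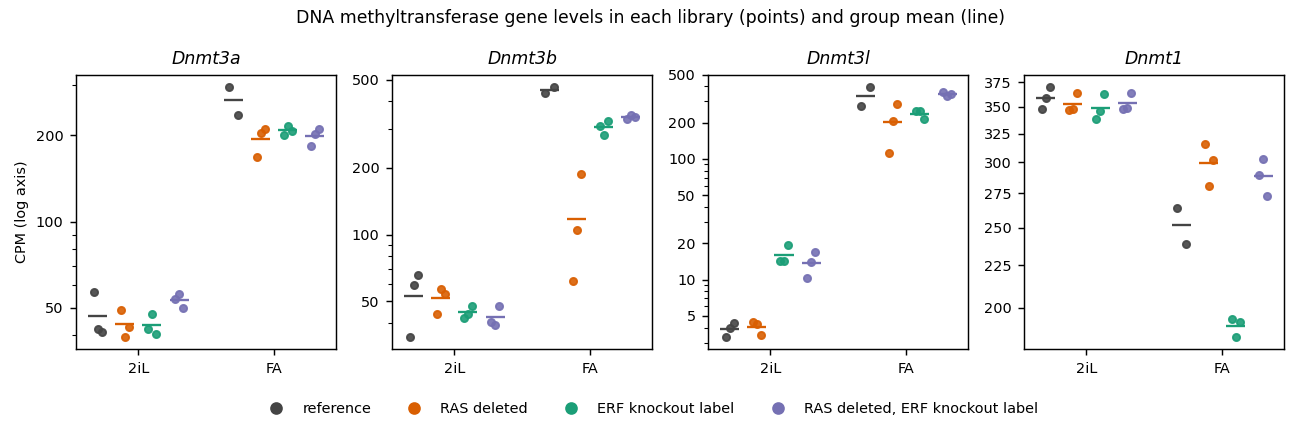
Level of Dnmt3a, Dnmt3b, Dnmt3l and Dnmt1 in each library, as CPM on a log axis, with 2iL on the left and FA on the right of each panel and a line at each group mean. The 3 FA libraries with RAS deleted and ERF wild type spread from 62.0 to 187 CPM for Dnmt3b, below all other FA libraries, and the 2iL libraries labelled ERF knockout lie above the other 2iL libraries for Dnmt3l.

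A list of 30 further germline genes known for the same mode of silencing was read beside the members. In the reference line 5 rose and 7 fell in FA, where 24% of all genes were called, or 8 and 5 without FA replicate 1 and 4 and 9 without replicate 2. The piRNA pathway genes Tdrd1 (log2 3.37, SE 0.32) and Tdrd5 (3.16, SE 0.23), the meiotic entry gene Stra8 (2.19) and the meiotic recombinase Dmc1 (1.25) had the largest rises. Fkbp6 (-2.23), Tuba3a (-1.74), Rpl10l (-1.60) and Syce1 (-1.44) had the largest falls, where Tuba3a and Rpl10l have near-identical copies that can share reads. With RAS deleted in FA and ERF wild type, 5 were higher and 10 lower, where 17.3% of all genes were called, or 3 and 10 without reference FA replicate 1 and 8 and 6 without replicate 2. Tdrd1 (-3.23), Tdrd5 (-2.36), Mov10l1 (-1.89) and Majin (-1.89) had the largest falls, and D1Pas1 (1.62), Sohlh2 (1.58), Rpl10l (1.55) and Tex19.1 (1.27) the largest rises. Mov10l1 changed by -1.15 without reference FA replicate 2, and Tex19.1 by 0.94 without replicate 1, which was not called. Tdrd1 stood at 0.539 ± 0.0807 CPM (SD, n = 3) in the reference line in 2iL, 5.78 ± 2.68 CPM (SD, n = 2) in FA and 0.594 ± 0.264 CPM (SD, n = 3) in FA with RAS deleted.

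With the ERF knockout label, the deletion of RAS in FA lowered 13 of these 30 genes and raised none, beside 7 and none of the 10 members, where 4.06% of all genes were called lower. The median log2 change was -0.93 for the 30 and -1.35 for the 10, against 0 over all genes. The ERF knockout label itself went with 3 higher and 2 lower in 2iL with RAS present (9.72% of all genes called) and 6 and 3 with RAS deleted (13%). In FA it went with 4 and 0 with RAS present (2.36%) and 5 and 6 with RAS deleted (16.6%). The 4 calls depend on which reference FA library is kept. With RAS present the median log2 change of the 30 was 0.61, or 0.4 without reference FA replicate 1 and 0.85 without replicate 2. In 2iL the deletion of RAS gave no call in either line by edgeR, with 4 and 2 genes at an adjusted p under 0.05, beside 5.7% and 1.31% of all genes.

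Genes of the repressor assembly were read from a list of 17. Of these 17 genes, which include E2f6, Mga, Max, L3mbtl2, Pcgf6 and the methyltransferase pair Ehmt1 and Ehmt2, 1 was called between 2iL and FA in the reference line, where 24% of all genes were. It was Wdr5, a subunit shared with other chromatin complexes (log2 -1.43, SE 0.10, edgeR adjusted p 3.16e-11). In FA the deletion of RAS called none of the 17 under either ERF label, with log2 fold changes from -0.89 to 0.71 when ERF was wild type and -0.26 to 0.45 with the knockout label, where 17.3% and 6.88% of all genes were called. Tfdp1 was called lower with ERF wild type when reference FA replicate 2 was left out (-1.21). The ERF knockout label called none in any medium or RAS state, where 2.36 to 16.6% of all genes were called. At an adjusted p under 0.05 without the 2-fold minimum, 3 to 14 of the 17 passed in those comparisons, beside 9.78 to 42.8% of all genes.

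The levels of Dazl over the 23 libraries were most like those of Med12l, Slc1a1, Gnal, Gca and Itgb3, with Pearson r of 0.98, 0.975, 0.973, 0.972 and 0.965 on log2(CPM + 1), among 13857 genes that reached 1 CPM in some group. The libraries fall into groups by medium and line, so r describes a shared order of groups and carries no p. Slc1a1, a glutamate transporter gene, had 16.1 ± 2.88 CPM (SD, n = 3) in the reference line in 2iL, 0.707 ± 0.339 CPM (SD, n = 2) in FA and 12.2 ± 5.34 CPM (SD, n = 3) in FA with RAS deleted. Itgb3, an integrin subunit, had 42.6 ± 2.27, 1.83 ± 0.497 and 39.3 ± 16.7 CPM in the same groups. None of the 5 is a germline gene of the lists used here. For Mael, chosen for this reading after its values were seen, they were Cyp2d22 (0.97), Zdhhc13 (0.965), Pts (0.963), Msh5 (0.962) and Dnah1 (0.961), of which Msh5 acts in meiotic recombination.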

How the data were processed

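Ribosome-depleted total RNA was read as 75 bp pairs from strand-specific libraries, per the labels. The submitters' processing notes name bcl2fastq 2.20.0, fastp 0.20.0, Salmon and the mm10 build. The authors deposited estimated counts per gene for each library, with TPM and an effective length, and a matrix of counts that equals the rounded estimated counts (0 values differ). Salmon divides reads among similar transcripts, so close copies are less certain. The deposited TPM values were used only to compare genes with each other.

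The test of counts used edgeR 4.0.16 under R 4.3.3 (filterByExpr, TMM, robust quasi-likelihood) in 1 model of all 23 libraries, with Benjamini-Hochberg adjustment over the 20372 genes tested. A call needs an adjusted p under 0.05 and a 2-fold change. There were 12 comparisons of groups and 5 tests of a difference between effects. Standard errors were derived from each log2 change and its F value. The edgeR steps were tested on simulated data. Gm26917, a predicted gene, took 17.6 to 27.9% of counts. Libraries of 1 group differed by more than sampling noise (chi-square per degree of freedom of 3.04 to 44.9 over 22 pairs), so each counts once. The labels name no molecular identifiers, so a read may not be its own molecule, and errors come from the spread between libraries.

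The members and gene lists were chosen with earlier results of these data known, so their direction is not independent evidence. Named genes were all members and DNA methylation genes, the 4 largest called rises and falls of other lists in 2 comparisons, and the 5 genes most like Dazl. Same-numbered libraries deviated together (every correlation over 0.1, from 0.103 to 0.38) between media in the 3 lines other than the reference and for the deletion of RAS in 2iL. Elsewhere the lowest correlation was -0.079 to 0.029. Promoters come from RefSeq (GRCm38.p6). Alternatives were DESeq2 1.42.0 and its size factors, effective length as an offset, no filter, no fold minimum, only the compared groups, the replicate block and leaving out libraries. Values of the deleted gene are not reported here.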

Additional observations from a re-analysis of the deposited data

Results flagged for a closer look

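In 15 cases a test of the difference between 2 effects passed for a member, which is what brought these results here. Values are differences of log2 changes, each with its edgeR adjusted p, and no cause was tested.

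For the deletion of RAS in FA, the effect with the ERF knockout label less that with ERF wild type was -3.01 for Dazl (p 2.20e-06), 1.27 for Mael (0.00922), -1.65 for Stk31 (7.78e-06), -2.52 for Tex101 (0.0116) and -2.34 for Asz1 (0.00139). The Mael value was 0.50 without reference FA replicate 2, and that of Tex101 was -1.86 (edgeR adjusted p 0.0832) without reference FA replicate 1. Without single libraries Asz1 ran from -3.35 to -1.72.

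For the deletion of RAS, the effect in FA less that in 2iL was, with ERF wild type, 2.53 for Dazl (8.88e-06), -1.73 for Mael (0.00431) and 1.14 for Stk31 (0.000536). Those of Mael and Stk31 fell under 2-fold without reference FA replicate 2 (-0.98) and 1 (0.85). With the ERF knockout label it was -1.30 for Ddx4 (0.00120), -1.51 for Sycp3 (0.00251) and -2.68 for Tex101 (0.0228), and the last lost its call in 5 of 12 fits without 1 library.

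For the ERF knockout label, the effect in FA less that in 2iL was, with RAS present, 1.84 for Dazl (0.00113), -1.26 for Mael (0.0295) and 3.91 for Tex101 (0.00104), or 3.24 to 4.97 without single libraries. With RAS deleted it was -1.89 for Asz1 (0.00418). The Mael value lost its call in 6 of 11 fits without 1 library, and was -0.52 without reference FA replicate 2.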

How the results depend on the processing

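Of 49 member calls in the 12 comparisons 31 were kept in every alternative, as were 9 of 15 differences between effects, and no called value changed sign. Without the 2-fold minimum the number of members called was 4 between media with RAS deleted (beside 43% of all genes), 5 with RAS deleted and the ERF knockout label (55.7%), 1 for the deletion of RAS in 2iL with ERF wild type (5.7%), 5 for medium by ERF with RAS present (9.34%) and 3 with RAS deleted (26.4%). It was 9 in place of 6 between media in the line labelled ERF knockout (46.9%), and for the deletion of RAS in FA 6 in place of 4 with ERF wild type (41.3%) and 9 in place of 7 with the knockout label (26.4%). Other counts rose by at most 2. Without a filter on low counts it was 1 for the deletion of RAS in 2iL with the ERF knockout label. With only the compared groups, with or without the replicate block, it was 2 for the ERF knockout label in FA with RAS present, and the replicate block gave 1 for the deletion of RAS in 2iL with the ERF knockout label. In the comparisons whose numbers pair the libraries the block changed no other call. The block also lost calls where same-numbered libraries did not all correlate above 0.1. Among them were Ddx4 between media in the reference line (0.88) and Slc25a31 for the ERF knockout label in FA with RAS deleted (0.99). In the reference line, replicate 1 had raised chromosome 8 expression in both media.

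With each library left out in turn there were 0 to 7 calls for the ERF knockout label in FA with RAS present, 3 to 6 with RAS deleted, 1 to 2 for medium by ERF with RAS deleted and 2 to 5 with RAS present. Fits that leave 1 reference FA library assume that it varies like the other groups. Without the 4 libraries with raised chromosome 8 expression, chosen after seeing the data, the first 2 of these counts were 0 and 3. Values that were not called changed sign as follows. With effective length as an offset the deletion of RAS in 2iL with ERF wild type gave 0.03 for Sycp1 and -0.22 for Asz1. Without 1 library, Ddx4 (-0.10 to 0.09) and Sycp3 (-0.06 to 0.23) crossed 0 for the deletion of RAS in 2iL with the ERF knockout label, and Hormad1 (-0.02 to 0.09) did in FA. In the reference line Sycp3 (-0.74 to 0.11) and Sycp1 (-0.47 to 1.45) crossed 0 between media. Tex101 (-0.10 to 1.63), Asz1 (0 to 1.62), Sycp1 (-1.39 to 0.54) and Slc25a31 (-1.56 to 0.35) crossed 0 for the deletion of RAS in FA with ERF wild type. Without the 4 libraries Sycp3 (0.34) and Asz1 (0.06) between media in the reference line, and Tex101 (-0.31) and Asz1 (-0.20) for the deletion of RAS in FA, had the other sign. The causes were not tested beyond the libraries left out. Depth limits Tex101 most, at 4 to 61 counts per library, then Asz1 at 11 to 118.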
